A study of Mus musculus with 2 samples.

Results

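The proneural genes described here are 9 genes for transcription factors of the basic helix-loop-helix (bHLH) family: the neurogenins Neurog1, Neurog2 and Neurog3, the NeuroD factors Neurod1, Neurod4 and Neurod6, and Atoh1, Ptf1a and Olig3. They were chosen by name, and each was found by its Ensembl gene identifier among the 34624 loci of the files, so all 9 had a locus. Untreated embryos from crosses of CBA/Ca×C57Bl/10 mice were taken whole at embryonic day 10.5, and their total RNA was sequenced. The series held 1 group with 2 replicates, so levels were described and no conditions were compared. Embryo numbers per replicate are not stated in the labels, so the spread between the replicates may be technical in part.

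Proneural bHLH factors bind E-box motifs in DNA as dimers with the broadly expressed E proteins. They move neural progenitors out of the cell cycle towards a neuronal fate, and they switch on Notch ligands that hold back neighbouring progenitors, in which Hes repressors then keep the proneural genes down. Id proteins take up E proteins and so limit the dimers. In the mouse the neurogenins and Atoh1 act early in dividing progenitors, and NeuroD factors act later, in cells that are leaving the cycle. At midgestation these genes are active in small domains of the neural tube, the cranial placodes and the sensory ganglia. In RNA of whole embryos, fewer cells that express a gene and less RNA of it per cell cannot be told apart.

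Upstream sequences are shown for 4 members, chosen for their values: Neurod4 was the highest and Neurod6 the lowest of the members with a locus of their own, and Neurog2 and Olig3 differed most between the replicates among members above 1 RPKM. Each sequence is the 250 bases before a gene start of RefSeq on build GRCm38.p6, printed 5′ to 3′ on the strand of the gene, with every E-box (CANNTG, the same on both strands) in capitals. Neurod4 had 2 such starts, and the one farther upstream is shown, at chr10:130280255-130280504 on the minus strand. The others lie at chr6:55681264-55681513 on the minus strand (Neurod6), chr3:127632886-127633135 on the plus strand (Neurog2) and chr10:19356289-19356538 on the plus strand (Olig3).
Neurod4: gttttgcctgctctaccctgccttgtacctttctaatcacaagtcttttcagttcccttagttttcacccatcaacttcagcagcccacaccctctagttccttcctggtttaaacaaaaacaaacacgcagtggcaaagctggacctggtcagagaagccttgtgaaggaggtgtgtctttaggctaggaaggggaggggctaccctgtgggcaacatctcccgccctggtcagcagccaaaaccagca
Neurod6: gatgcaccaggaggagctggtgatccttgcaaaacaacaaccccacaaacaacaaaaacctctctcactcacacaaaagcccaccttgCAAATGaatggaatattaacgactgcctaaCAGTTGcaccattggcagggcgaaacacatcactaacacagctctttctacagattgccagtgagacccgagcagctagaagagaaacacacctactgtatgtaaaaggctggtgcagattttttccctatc
Neurog2: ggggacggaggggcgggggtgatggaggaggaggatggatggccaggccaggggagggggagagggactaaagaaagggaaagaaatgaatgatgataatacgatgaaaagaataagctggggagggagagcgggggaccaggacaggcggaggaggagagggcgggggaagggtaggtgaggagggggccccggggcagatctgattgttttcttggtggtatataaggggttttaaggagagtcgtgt
Olig3: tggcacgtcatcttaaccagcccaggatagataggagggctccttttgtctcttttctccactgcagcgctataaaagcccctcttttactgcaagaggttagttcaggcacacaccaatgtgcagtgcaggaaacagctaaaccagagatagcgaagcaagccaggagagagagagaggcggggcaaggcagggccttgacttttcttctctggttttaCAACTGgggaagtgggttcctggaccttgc

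The windows of Neurod4 and Neurog2 held no E-box, that of Olig3 held 1 and that of Neurod6 held 2. Over all members, 4 of 10 windows held an E-box, against 66.2% of the 32851 windows of the same length in the table. The E-box CAGATG, searched on both strands, was in 0 of the 10 windows and in 14.4% of all windows. The E-box CAGCTG was in 1 of the 10, that of Neurog3, against 13.001% of all windows, and both of these motifs are also counted as CANNTG. The N-box CACNAG, a motif bound by Hes repressors, was in 3 of the 10 windows on either strand, against 36.7% of all windows: both windows of Neurod4 and that of Neurod6 held it. The 2 windows of Neurod4 overlap and share an N-box match, so the 10 windows are not all separate stretches. These are matches of letters only, and other stretches were not searched.

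Of the 9 members, 7 reached 1 RPKM (reads scaled to transcript length and library size) in both replicates, the minimum used here for a detected gene. Of all loci 49.4% did so, and 65.1% of protein-coding loci. The members were spread widely over the protein-coding loci: by mean RPKM, Neurod6 stood at percentile 24.2 of them and Neurod1 at percentile 75.3. The member median was 8.15 RPKM in replicate 1 and 5.58 RPKM in replicate 2, against 1.76 and 1.003 RPKM over all loci. The 9 loci together held 1962 reads in replicate 1 and 7299 in replicate 2, out of 18318181 and 117522171 reads over all loci.

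**Figure D1:**
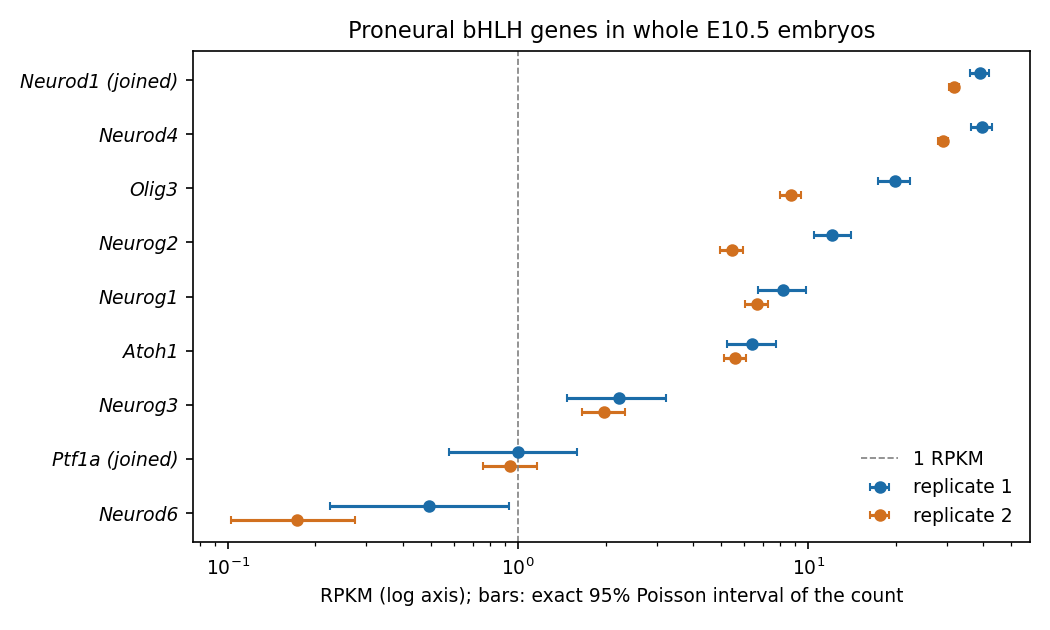
RPKM of each proneural gene (log axis) in replicate 1 (blue) and replicate 2 (orange), with bars for the exact 95% Poisson interval of its count, and a dashed line at 1 RPKM. Neurod1 and Neurod4 lie near 30 to 40 RPKM, a middle group lies between 5.46 and 19.8 RPKM, and Ptf1a and Neurod6 lie below the line. The bars of Ptf1a cross the line in both replicates.

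Among the NeuroD genes, which act downstream of neurogenins in differentiating neurons, 2 were the highest of all members and 1 was the lowest. Neurod4 had 39.5 RPKM in replicate 1 and 29.2 RPKM in replicate 2, from 588 and 2470 reads, a mean of 34.3 ± 7.28 RPKM (SD, n = 2). The locus of Neurod1, a factor for sensory neurons and, later, for endocrine cells of pancreas and gut, had 39.0 and 31.7 RPKM, a mean of 35.4 ± 5.11 RPKM (SD, n = 2). That locus joins Neurod1 with Cerkl, a ceramide kinase-like gene, and with another identifier that has no symbol, so its 678 and 2475 reads cannot be given to Neurod1 alone. Neurod6, which in the mouse marks differentiating neurons of the later cortex, had 0.492 RPKM from 9 reads in replicate 1 and 0.173 RPKM from 18 reads in replicate 2. The exact 95% Poisson interval of these counts ran from 0.225 to 0.933 RPKM in replicate 1 and from 0.103 to 0.273 RPKM in replicate 2. Intervals of this kind cover counting error only.

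The neurogenins, which start neuronal commitment in progenitors, stood below the highest NeuroD genes. Neurog1, needed in the mouse for the neurons of several cranial sensory ganglia, had 8.15 and 6.63 RPKM in replicates 1 and 2, from 108 and 499 reads. Neurog2, which acts in the neural tube and in epibranchial placodes, had 12.1 RPKM in replicate 1 and 5.46 RPKM in replicate 2, from 185 and 474 reads. Neurog3, the factor that starts endocrine differentiation in the pancreas and is also found in parts of the ventral neural tube and hypothalamus, had 2.23 and 1.97 RPKM from 27 and 136 reads. Neurog3 was thus the lowest neurogenin in both replicates, whereas Neurog2 was above Neurog1 in replicate 1 and below it in replicate 2. The ratio of Neurog2 to Neurog1 was 1.48 in replicate 1, with an exact 95% binomial interval of 1.16 to 1.90, and 0.823 in replicate 2, with an interval of 0.724 to 0.935. The order of these 2 genes therefore turned between the replicates by more than counting error.

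Of the 3 factors of dorsal progenitors, Olig3 had the highest RPKM and Ptf1a the lowest in both replicates. Olig3, which marks the progenitors of the dorsal spinal classes that depend on roof plate signals, had 19.8 RPKM in replicate 1 and 8.69 RPKM in replicate 2, from 242 and 603 reads. Atoh1, the factor of the dorsalmost spinal interneurons, of the rhombic lip and, later, of inner ear hair cells, had 6.39 and 5.58 RPKM from 108 and 536 reads. Ptf1a, which directs dorsal progenitors to an inhibitory fate and is needed for the pancreas, shared its locus with the antisense gene Ptf1aos and had 0.995 and 0.941 RPKM from 17 and 88 reads. Ptf1a was the member just under the minimum and Neurog3 the one just above it. As no label or header states use of strand, reads of Ptf1a and of its antisense partner cannot be told apart.

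Between members, levels were compared as the difference of log2(RPKM + 1), which understates differences of low genes. A difference was called beyond the replicate spread when it had the same sign in both replicates and its mean was over 2 SD of the replicate log2 ratio among the 500 loci nearest in level, taking the larger SD of the 2 genes. These SDs ran from 0.40 for Neurod6 to 0.63 for Neurog2. Of the 36 member pairs, 26 were beyond the spread and 10 within it. By mean RPKM the order was Neurod1, Neurod4, Olig3, Neurog2, Neurog1, Atoh1, Neurog3, Ptf1a and Neurod6, and only 1 of the 8 pairs of neighbours in it was beyond the spread, Neurod4 over Olig3 at 1.30 ± 0.48 (SD, n = 2) on the log2 scale. It was 0.96 in replicate 1 and 1.64 in replicate 2, against a limit of 1.15, so replicate 1 alone did not pass. No p-value is given, since 2 replicates are too few for an exact test between genes to pass any usual threshold.

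**Figure D2:**
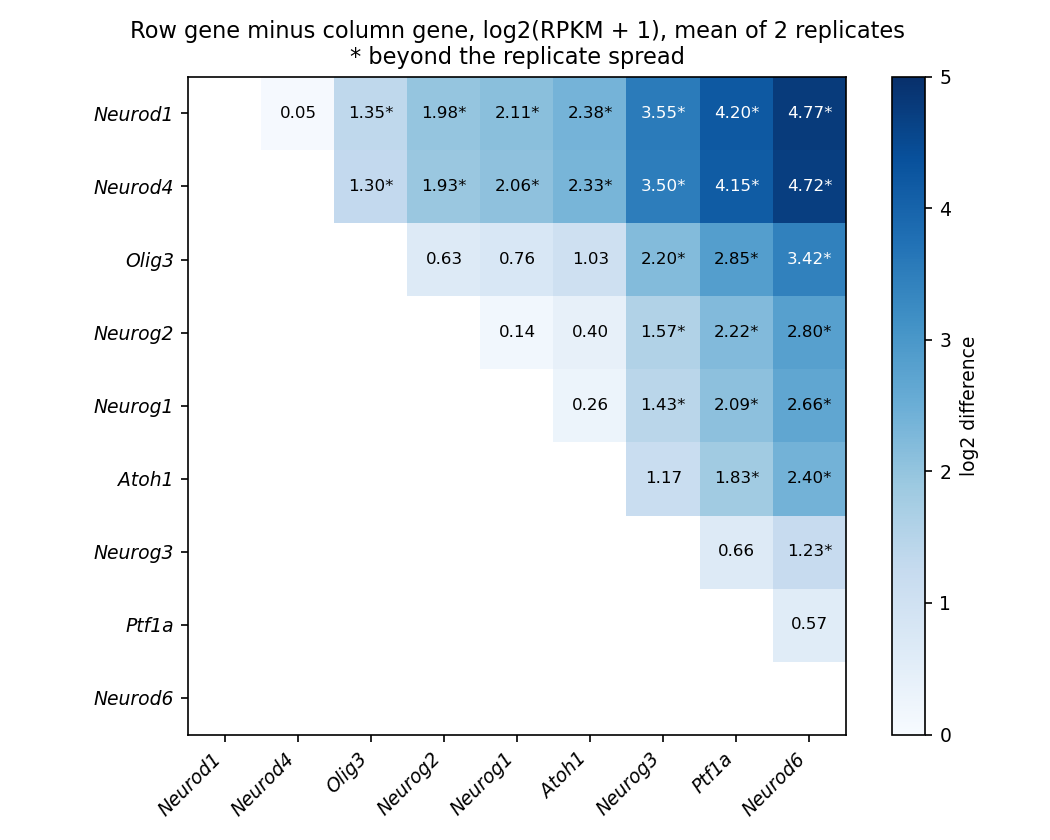
Difference in log2(RPKM + 1) between the gene of each row and the gene of each column, as the mean of both replicates (colour and number), with a star where it was beyond the replicate spread. The rows of Neurod1 and Neurod4 are starred against all 7 lower genes, whereas Olig3, Neurog2, Neurog1 and Atoh1 carry no star against each other.

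Neurod4 exceeded the neurogenins by wide margins on this scale. Against Neurog1 the difference was 2.06 ± 0.11 (SD, n = 2), against Neurog2 it was 1.93 ± 0.42, and against Neurog3 it was 3.50 ± 0.22, all beyond the spread. As a ratio of RPKM, Neurod4 over Neurog1 was 4.84 in replicate 1 and 4.40 in replicate 2, with exact 95% binomial intervals of 3.94 to 6.002 and 3.997 to 4.86. Neurod1 and Neurod4 differed by 0.05 ± 0.10, within the spread. Neurog1 exceeded Neurog3 by 1.43 ± 0.10, and Neurog2 exceeded it by 1.57 ± 0.64, both beyond the spread. In replicate 2 taken alone, the difference of Neurog2 over Neurog3 was 1.12, under its limit of 1.26.

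Of the dorsal factors, Olig3 over Ptf1a was 2.85 ± 0.75 and Atoh1 over Ptf1a was 1.83 ± 0.09 (SD, n = 2), both beyond the spread, with Ptf1a in a joined locus. Olig3 over Atoh1 was 1.03 ± 0.66, within the spread against a limit of 1.15. The ratio of RPKM of Olig3 over Atoh1 was 3.10 in replicate 1, with an exact 95% binomial interval of 2.46 to 3.93, and 1.56 in replicate 2, with an interval of 1.38 to 1.75. Both values were above 1, and the 2 intervals did not overlap. Olig3 over Neurog2 was steadier, with RPKM ratios of 1.64 and 1.59, as both genes were lower in replicate 2 by a similar factor.

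The lengths behind the RPKM bear on this order. The authors' RPKM of 823 single-transcript loci without a coding part gave a median library size of 13711737 reads for replicate 1. Of these loci, 72.7% lay within 0.1% of it. The library size ratio of 5.68 then gave 77921398 reads for replicate 2. Both sizes are below the sums of reads over all loci, 18318181 and 117522171, for a reason not given in the sources used here. With the sizes from the RPKM, the RPKM of the 7 members with a locus of their own used lengths of 884 bases (Neurog3) to 1335 bases (Neurod6). For 4 of them, Neurog1, Neurog3, Neurod4 and Neurod6, that length was exactly the distance along the transcript from its start to the end of the coding part in GENCODE vM21, and for Neurog2 it was 1 base shorter. The bases after the coding part, the 3′ untranslated region, were thus not in the length. Lengths for Atoh1 and Olig3 were 1233 and 891 bases, against 1254 and 918 bases up to the coding end in that later annotation. Whether reads in the 3′ untranslated region were left out of the counts as well was not tested. That region has 2259 bases in Neurod4 and 656 bases in Neurog3, so the choice of length shifts the members unequally.

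Divided by the full transcript length instead, Neurod4 had 12.8 and 9.48 RPKM in replicates 1 and 2, Olig3 8.52 and 3.73 RPKM, and Neurog2 6.06 and 2.73 RPKM. The order by mean did not change among these 7 genes. Of their 21 pairs, 10 were then beyond the spread, against 14 with the deposited RPKM: Neurod4 over Olig3, Neurod4 over Neurog2, Neurog2 over Neurog3 and Neurog3 over Neurod6 were no longer called. Only the members were rescaled, and the limits stayed those of the deposited RPKM. The pseudocount of 1 was kept, which shrinks the differences of lower values. How much of the loss of calls came from the lengths themselves was not tested. Neurod4 over Neurog1 and over Atoh1 stayed beyond the spread.

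All 9 members had a lower RPKM in replicate 2 than in replicate 1, as had 79.1% of loci with a mean of 1 RPKM or more. The median log2 ratio, replicate 2 minus replicate 1, was -0.29 over the members and -0.38 over those loci. The shift was not the same in all members. Ptf1a, Neurog3, Atoh1 and Neurog1 lay between -0.04 and -0.26, Neurod1 and Neurod4 at -0.29 and -0.42, Neurod6 at -0.35, and Neurog2 and Olig3 at -1.02 and -1.10. Among the 500 loci nearest in level, the ratio of Olig3 stood at percentile 6.0 and that of Neurog2 at percentile 14, while those of Atoh1 and Neurog3 stood at percentiles 82.0 and 84.4. The value of Neurod6 depends on the pseudocount: it was -1.12 with a pseudocount of 0.1, close to Neurog2 at -1.13 and Olig3 at -1.18, and -1.45 with 0.01, the lowest of the members.

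**Figure D3:**
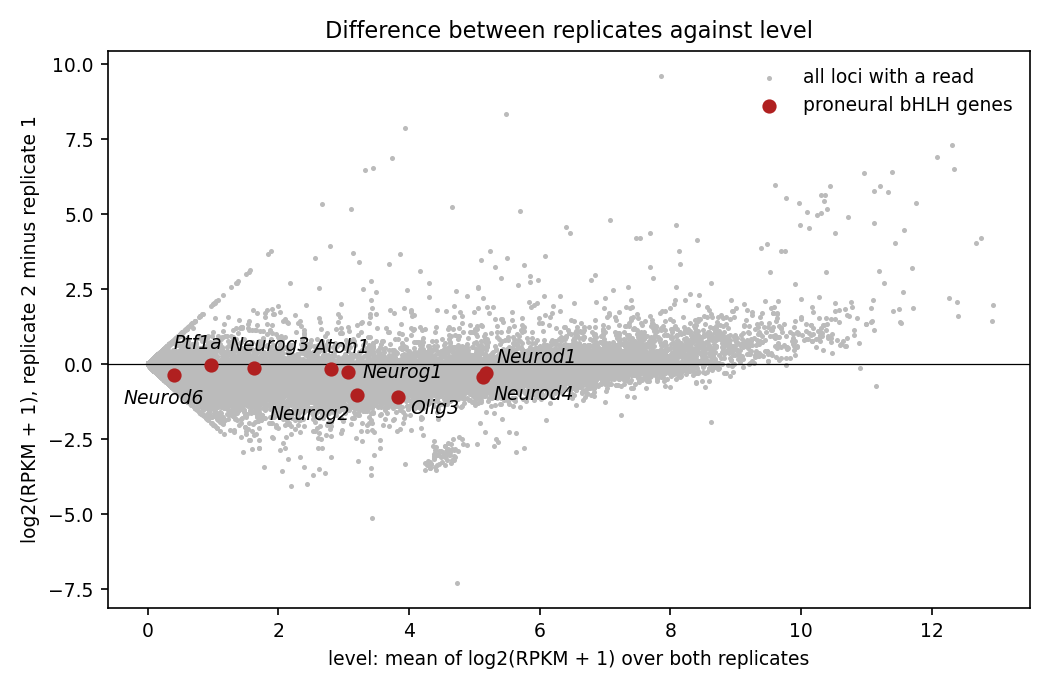
Replicate 2 minus replicate 1 in log2(RPKM + 1) against the mean level, for all loci with a read (grey) and the 9 proneural genes (red). Neurog2 and Olig3 lie near -1, below the other 7 proneural genes, which lie between 0 and -0.42 with the pseudocount of 1; Neurod6 lies at -1.12 with a pseudocount of 0.1.

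The replicates were also compared by reads, with no pseudocount, for the members with a locus of their own. Reads in replicate 2 over reads in replicate 1, divided by the library size ratio of 5.68, were 0.438 for Olig3 (exact 95% binomial interval 0.377 to 0.511) and 0.451 for Neurog2 (0.380 to 0.537). For Atoh1 the value was 0.873 (0.709 to 1.08), and for Neurog1 it was 0.813 (0.659 to 1.01). The intervals of Olig3 and Neurog2 overlapped with each other and lay below those of Neurog1, Atoh1 and Neurod4, the last at 0.739 (0.675 to 0.810). An RPKM in replicate 2 of at most 0.5 of that in replicate 1 was seen in 2 of the 7 members with a mean of 1 RPKM or more and in 15.5% of loci of that mean. Neurod6, with 9 and 18 reads, was the lowest member by this value, at 0.352, with an interval of 0.150 to 0.889. The sums of reads over all loci had a ratio of 6.42, and division by it would lower every value and interval here by the same factor. Whether the intervals of Neurog1 and Atoh1 reach 1 therefore depends on the ratio used. With 1 library on each side these values compare 2 libraries and carry no replicate check.

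**Figure D4:**
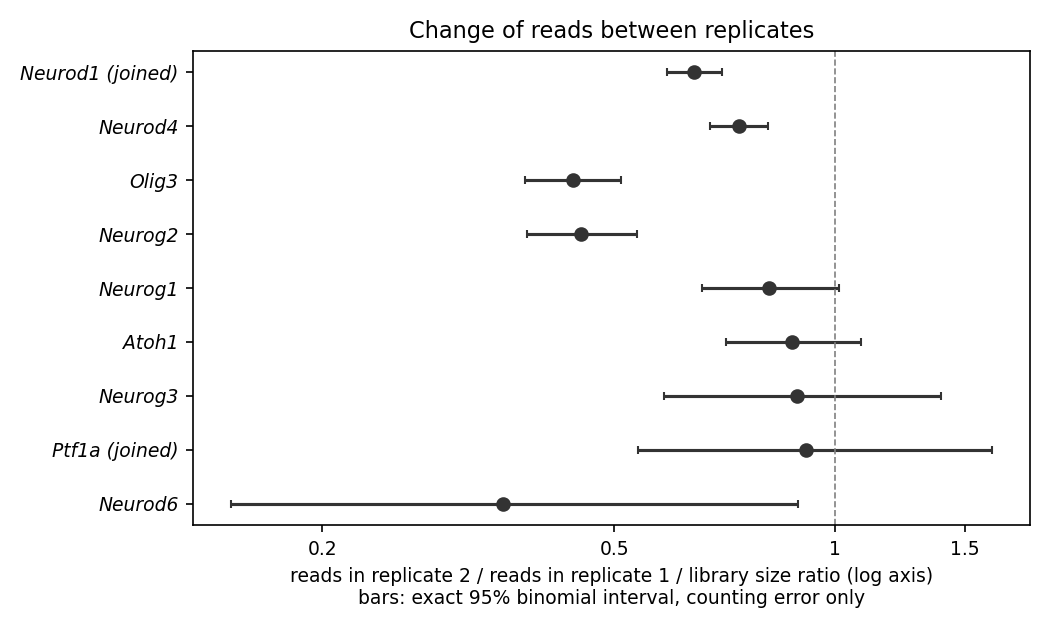
Reads in replicate 2 over reads in replicate 1, divided by the library size ratio of 5.68 (log axis), with the exact 95% binomial interval of each member. Olig3 and Neurog2 lie at 0.438 and 0.451, with intervals below those of Neurod4, Neurog1 and Atoh1, and the interval of Neurod6 is the widest on its low side.

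The loci of Neurod1 and Ptf1a, which hold several transcripts, did not keep 1 length in the authors' RPKM. Reads per RPKM rose by the factor 5.68 between replicates in each of the 7 members with a locus of their own, but by 4.48 in the locus of Neurod1 and by 5.47 in that of Ptf1a. The length behind the RPKM of the Neurod1 locus was 1269 bases in replicate 1 and 1001 bases in replicate 2. Its RPKM in replicate 2 was therefore 0.814 of that in replicate 1, while its reads were 0.642 of those in replicate 1 after division by the library size ratio (exact 95% binomial interval 0.590 to 0.700). The replicate ratio of the Neurod1 locus was thus below the 0.739 of Neurod4 by reads and above it by RPKM. Other loci shared this limit. Among loci with several transcripts and over 200 reads in replicate 1, 23.2% kept the ratio of 5.68 within 1%, against 100% of single-transcript loci. Lengths behind the RPKM of the related genes below were not worked out. Their RPKM, and its change between replicates, may therefore reflect length in part.

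Other neural bHLH genes outside the 9 members ranged as widely. Of these 14 genes, 8 reached 1 RPKM in both replicates, against 49.4% of all loci and 65.1% of protein-coding loci. Nhlh2, a factor of young neurons, stood highest at 43.7 and 46.0 RPKM in replicates 1 and 2, above every member. Its relative Nhlh1 had 4.83 and 5.24 RPKM. Among regulators of other lineages, Tal1, which acts in blood cells and in some spinal interneurons, had 14.2 and 4.597 RPKM, and Tal2, of midbrain neurons, had 9.88 and 7.59 RPKM. Atoh8 had 6.12 and 3.16 RPKM, Ferd3l 5.74 and 1.75 RPKM, and Bhlhe22 1.76 and 1.55 RPKM.

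The other 6 of these genes were under the minimum in at least 1 replicate. The motor neuron and oligodendrocyte factor Olig2 had 1.81 and 0.976 RPKM, its relative Olig1 0.164 and 0.101 RPKM, Helt 0.651 and 0.764 RPKM, and Bhlhe23 0.440 and 0.644 RPKM. Atoh7, a factor of retinal ganglion cells, had 0 reads in replicate 1 and 2 reads in replicate 2. Neurod2, a factor of cortical neurons, had 0 reads in both, and a count of 0 allows up to 3 reads, or 0.164 and 0.0255 CPM (counts scaled to the sum over loci) in replicates 1 and 2.

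E proteins, the dimer partners, stood above all members. Tcf4 had 176 and 150 RPKM in replicates 1 and 2, Tcf12 149 and 195 RPKM, and Tcf3 77.2 and 83.7 RPKM, so that their median of 149 and 150 RPKM was set against a member median of 8.15 and 5.58 RPKM. Of the Id inhibitors, Id3 had 161 and 180 RPKM, Id2 84.2 and 59.7 RPKM, and Id1 38.8 and 29.1 RPKM. Id4, in a joined locus, was the lowest at 12.2 and 13.4 RPKM. Each of these genes is also transcribed in many tissues besides the nervous system, and whole embryos do not show in which cells.

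Notch ligands and repressors were likewise detected, at 5 of 5 and 5 of 6 loci, against 49.4% of all loci and 65.1% of protein-coding loci. Dll1, a target of neurogenins in the neural tube, had 96.7 and 82.6 RPKM in replicates 1 and 2 in a joined locus, and Dll3 had 37.7 and 31.8 RPKM. Jag1 had 61.5 and 51.7 RPKM, Jag2 6.72 and 4.16 RPKM, and Dll4, joined with another gene, 4.41 and 2.89 RPKM. Of the repressors, Hes1 had 79.0 and 71.6 RPKM and Hey1 29.2 and 25.0 RPKM. Hes5, the repressor most tied to neural progenitors, had 6.83 and 3.99 RPKM in a joined locus, Hey2 7.96 and 5.48 RPKM, and Heyl 6.48 and 2.44 RPKM. Hes3 had 0 and 11 reads, or 0 and 0.257 RPKM.

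Genes known in vertebrates to act downstream of neurogenins passed the minimum at all 14 loci of their list. Of all loci 49.4% did so, and 65.1% of protein-coding loci. The median of the list was 38.7 and 31.9 RPKM in replicates 1 and 2. Highest by RPKM were Dll1, the corepressor Cbfa2t2 (96.0 and 72.5 RPKM) and Dcx, a microtubule protein of migrating neurons (68.8 and 75.6 RPKM). Cbfa2t2 had 789 and 3071 reads, fewer than the 1538 and 7903 of Dcx, so their order rests on lengths not worked out here. Dcx rose by RPKM, but its reads in replicate 2 were 0.904 of those in replicate 1 after division by the library size ratio. Lowest was the zinc finger gene Insm1 (4.88 and 3.77 RPKM). Many of these genes have other regulators, and these levels do not show which of them acted.

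Lists of cell classes that depend on the members were counted at the same minimum of 1 RPKM, which 49.4% of all loci and 65.1% of protein-coding loci reached. A minimum of 3 RPKM was reached by 40.6% of all loci. Sensory ganglion genes passed at 12 of 13 loci, and at 7 with a minimum of 3 RPKM. They were led by Pou4f1 (52.5 and 62.7 RPKM in replicates 1 and 2), Avil in a joined locus (51.1 and 39.8 RPKM) and Isl1 (30.8 and 16.9 RPKM). Runx3 was lowest (0.145 and 0.520 RPKM from 3 and 15 reads). Its reads in replicate 2 were 0.880 of those in replicate 1 after division by the library size ratio, so they did not rise as its RPKM did. Genes of dorsal spinal neuron classes passed at 11 of 12 loci, and at 7 with a minimum of 3 RPKM, with a median of 5.34 and 3.56 RPKM. Among them Lhx9 (17.3 and 11.5 RPKM) and Lhx2 (15.97 and 12.7 RPKM) were highest, followed by Lmx1b (9.50 and 6.03 RPKM). Foxd3 was lowest (1.34 and 0.525 RPKM, joined). Which cells the reads of these genes came from was not tested. Genes of cortical neurogenesis passed at 9 of 10 loci, and at 4 with a minimum of 3 RPKM, the latter near the share of all loci. Pax6 (53.7 and 29.4 RPKM) and Bcl11b (16.7 and 11.9 RPKM) were highest and Neurod2 lowest, and both of the highest are also expressed outside the cortex.

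Pancreas and endocrine genes, the class tied to Neurog3 and Ptf1a, passed at 6 of 12 loci. That share was near the 49.4% of all loci and below the 65.1% of protein-coding loci. With a minimum of 3 RPKM they passed at 2 loci, against 40.6% of all loci. Highest were the secretory granule gene Chga (8.39 and 7.08 RPKM in replicates 1 and 2), Insm1 and Nkx6-1 (4.61 and 2.41 RPKM), each of which neural cells express as well. The pancreas regulator Pdx1 was lowest, with 0 and 3 reads. Hair cell genes, a later class tied to Atoh1, passed at 3 of 8 loci, below both of these shares at 1 RPKM. With a minimum of 0.3 RPKM they passed at 6, against 57.9% of all loci. They were led by the myosins Myo6 (37.6 and 25.4 RPKM) and Myo7a (10.7 and 4.12 RPKM) and by Lhx3 (3.01 and 2.61 RPKM), with Otof lowest (0.250 and 0.182 RPKM). Which cells the reads of Neurog3, Ptf1a and Atoh1 came from was not tested.

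**Figure D5:**
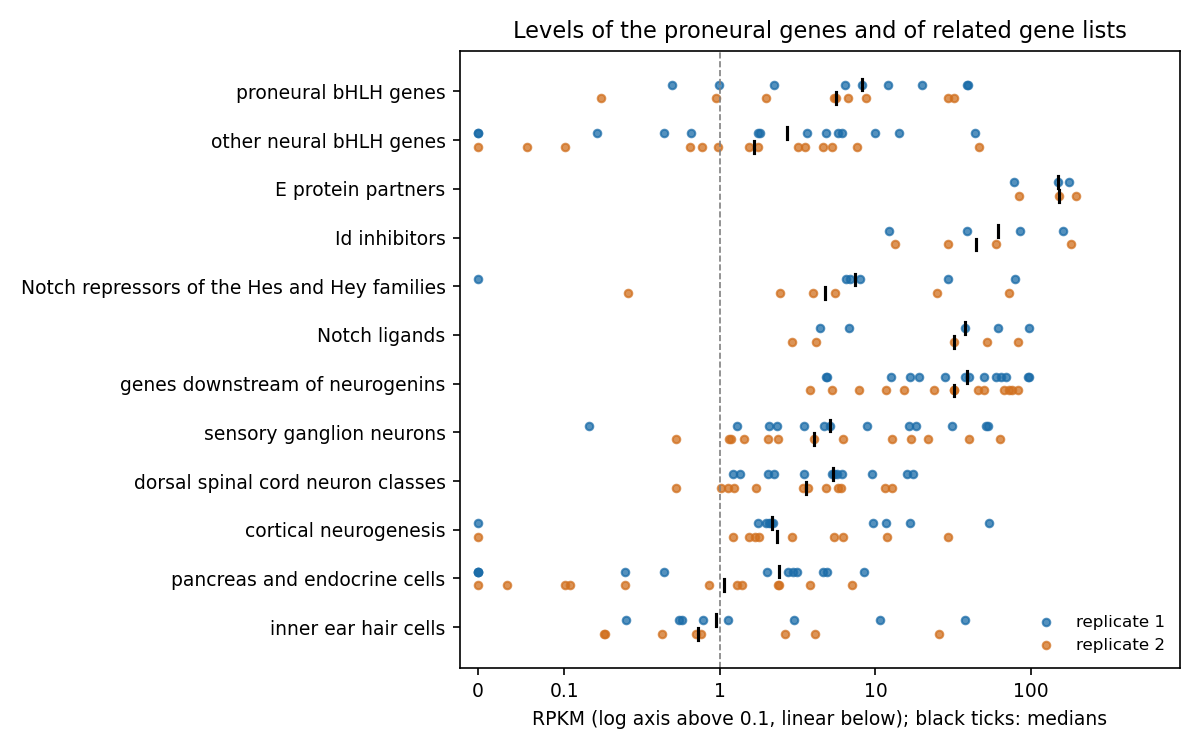
RPKM of each gene (log axis above 0.1 RPKM, linear below) in replicate 1 (blue) and replicate 2 (orange), for the 9 proneural genes and 11 related lists, with black ticks at the medians and a dashed line at 1 RPKM. The medians of E proteins, Id genes, Notch ligands and genes downstream of neurogenins lie above the proneural median, and those of hair cell genes lie below 1 RPKM.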

How the data were processed

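Reads of total RNA from 2 whole-embryo replicates were aligned with TopHat to mm9, per the submitters' processing notes, with no version stated. Read counter, filters and use of strand: not given in the sources used here. Each file gave, per the file headers, RPKM values and read counts per locus as the authors deposited them. The RPKM are per length and library size; the counts are raw whole numbers. Of 34676 rows, those with the same gene identifiers were summed to 34624 loci, of which 2473 joined several identifiers. Symbols were matched by identifier (32642 of 37681). CPM, computed from the deposited counts by scaling them to their sum over loci, served as an alternative.

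The length behind an RPKM was worked out from its count and GENCODE vM21 transcripts. Of 1611 coding single-transcript loci with over 200 reads, 45.6% had, within 1 base, the length up to the coding end and 0.124% the full length.

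No test between groups was possible with 1 group. Exact intervals cover counting error only, at 95% confidence. The spread method was tried on simulated data, only for equal pairs and pairs set far apart. The simulated loci had levels above that of Olig3, so the method was not tested at the levels of Olig3 and the members below it. The members, the 11 related lists (95 genes) and the methods were chosen with earlier results of these data known. Named genes were the members, all genes of the bHLH, E protein, Id and Notch lists, and the 3 highest and the lowest of each other list by mean RPKM; 2 genes that the rule names are not reported here. With 2 samples of 1 kind, no gene was named for a pattern like that of a member. Python 3.11.15, numpy 2.4.6, pandas 2.3.3, scipy 1.17.1 and matplotlib 3.10.9 were used. Alternatives covered the minimum, pseudocount, spread, scaling, CPM and each replicate left out, and 2 choices were added after seeing the data: members with a locus of their own, and full transcript length.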

Additional observations from a re-analysis of the deposited data

How the results depend on the processing

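The number of members at the minimum was 7 and ranged from 6 (minimum 3 RPKM, or members with a locus of their own) to 8 (minimum 0.3 RPKM). It was 7 with CPM and with either replicate left out. The 95 genes of the related lists passed at 75 loci, at 75 to 79 with 1 replicate left out, at 83 with a minimum of 0.3 RPKM and at 53 with 3 RPKM. Of all loci, 49.4% passed at 1 RPKM, 57.9% at 0.3 RPKM and 40.6% at 3 RPKM. With 3 RPKM the sensory ganglion list passed at 7 loci, the dorsal spinal list at 7, the cortical list at 4 and the pancreas list at 2, and with 0.3 RPKM the hair cell list passed at 6. The member median was 7.39 RPKM over both replicates and 5.58 to 8.15 RPKM with 1 replicate left out. It was 4.23 RPKM with full transcript lengths over the 7 members with a locus of their own. Of 36 pairs, 26 were beyond the spread, and 25 when the difference came from either replicate alone. The limits still came from both replicates there, and the rule of the same sign in both no longer applied. Without replicate 2, the calls of Neurod1 over Olig3, Neurod4 over Olig3 and Neurog3 over Neurod6 were lost, and Olig3 over Neurog1 and over Atoh1 were gained. Without replicate 1, that of Neurog2 over Neurog3 was lost. Olig3 over Atoh1 was also gained with a pseudocount of 0.1. Neurog3 over Neurod6 was also lost with pseudocounts of 0.1 and 0.01 and with the spread taken from loci of 1 RPKM or more. Members with a locus of their own gave 14 of 21 pairs beyond the spread, as fewer genes were compared. They gave 10 with full transcript lengths, where the limits and the pseudocount of 1 were left as they were. No call turned its direction under any of these settings. The median log2 ratio between replicates was -0.29 with the deposited RPKM and 0.18 when replicate 2 was multiplied by 1.41 to give both replicates the same median over loci of 1 RPKM or more. Neurod1 and Neurod4 then stood at 0.20 and 0.063, while Neurog2, Olig3 and Neurod6 stayed below 0, at -0.59, -0.65 and -0.26. CPM moved the ratio the other way, to a median of -0.39, with Neurod1 at -0.79 and Neurod4 at -0.59. The ratio between replicates has no value with 1 replicate left out. No paired analysis was possible because there is only 1 group. Replicate 1 limits the low members, with 9 reads for Neurod6, 17 for Ptf1a and 27 for Neurog3.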
